A study of Sorghum bicolor with 9 samples.

Results

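The transcripts described here are the long intergenic non-coding RNAs (LINC) of sorghum leaves, taken as every lncRNA transcript (a long transcript with no recognised coding sequence) whose deposited name begins with LINC. There were 8130 of them among 11928 lncRNA transcripts, or 68.2%. They came from leaves of Sorghum bicolor, a C4 cereal, sampled under mild drought, severe drought or normal water supply, the last of which is called control. Each water level had 3 libraries, made from total RNA with a strand-specific kit. All 3 groups share species and tissue, and the labels give no cultivar, plant age, length of drought or soil water content. Nothing in the labels ties a library to a plant of its own, so p-values measure only the spread between these libraries, which may be technical.

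Long intergenic non-coding RNAs are transcribed from the DNA between genes, and many are spliced and polyadenylated like messenger RNAs. They are usually made at low levels and in few tissues or conditions. In plants some act on nearby chromatin, some bind microRNAs or proteins, and some are cut into small RNAs. In Arabidopsis thaliana the lncRNA DRIR is known to affect tolerance of drought and salt.

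Levels are given as CPM, the counts of a transcript scaled to the total of the gene table of the same library, with no further factor. The gene table held 27854146 to 41228478 counts per library, and LINC transcripts took 2.18% to 5.83% of them. The label of leaf fitted the marker genes: 78 genes of photosynthesis and C4 metabolism summed to 79287 to 133630 CPM per library, against 26.9 to 124 CPM for 32 seed genes, 0 to 1.62 CPM for 13 pollen genes and 123 to 217 CPM for 10 root genes. An assembled locus outside the class, XLOC_003452, took 21529 to 172201 CPM of the totals by which every LINC level is divided. Scaling by trimmed means of the gene table (TMM) in place of plain totals moved the median log2 difference of all lncRNA tested by 0.02 for mild drought against control. The shift was 0.31 for severe drought against control, 0.29 for severe against mild drought and 0.17 for both drought levels against control.

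The LINC transcripts belonged to 7813 loci, and 188 loci held more than 1 of them, with up to 9 in a locus. Chromosomes 1 to 10 carried 7877 and unplaced sequences 253, with most on chromosome 3 (928) and fewest on chromosome 9 (659). Positions are those of the deposited tables, which give a start and an end but no strand or exons, and no build is named in the files or labels used here. The intergenic label held for nearly all: of 7920 on a sequence that also carries a gene of the mRNA table, 148 (1.87%) overlapped the span of such a gene. The median distance to the nearest gene was 12233 bases, with 33.5% within 5000 bases and 25.9% more than 50000 bases away.

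Most LINC transcripts were short. The span on the genome had a median of 337.5 bases, quartiles of 277 and 533 and extremes of 201 and 492705. The length that links a transcript's deposited count to its deposited FPKM (fragments per length and depth) gives its length without introns. Among 2056 LINC transcripts with at least 100 counts over all libraries, 795 (38.7%) had such a length under 0.95 of their span, as a spliced transcript has. That share was 64.7% of 916 transcripts of the name class AS, 96.5% of 932 of OT and 19.7% of 295 of IT, classes whose names were not interpreted. The spliced LINC transcripts had a median length of 998 bases on a median span of 2899 bases, and the unspliced ones had a median length of 592 bases. Of those with a mean of at least 1 CPM, LINC5743 on chromosome 7 (17726051 to 17759074) had the longest span, 33024 bases, of which 2385 were in the transcript. LINC1148 on chromosome 10 (205351 to 214899) was the longest transcript itself, with 9204 bases, and had 14.9 to 45.3 CPM in the 9 libraries.

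A single transcript held most of the LINC counts. LINC1417 (TCONS_00022715), an unspliced transcript of 356 bases on chromosome 10 (54687687 to 54688042), took 55.3% of the 11869216 LINC counts. It lies 1292 bases from a gene for an ESCRT-related CHMP1 protein, of the machinery that sorts membrane proteins into vesicles. It had 21783, 6668 and 11068 CPM in the mild drought libraries, 20604, 11461 and 37705 CPM in the severe drought libraries and 25654, 10379 and 41179 CPM in the control libraries. The second library was the lowest of each group, and the groups overlapped throughout. The mean was 13173 ± 7774 CPM in mild drought against 25737 ± 15400 CPM in controls (SD, n = 3 each), a log2 difference of -0.97 ± 0.65 (SE; edgeR quasi-likelihood test, adjusted p = 1.00). In severe drought it was 23257 ± 13321 CPM, and the log2 difference from controls was -0.15 ± 0.64 (edgeR adjusted p = 0.998). Exact two-sided permutation tests gave p = 0.3 for mild drought, 0.9 for severe drought and 0.4 for severe against mild drought, where 0.1 is the smallest p that 3 against 3 libraries allow. The exact test of both drought levels together gave p = 0.405, where 0.0238 is the smallest.

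The 10 most abundant LINC transcripts held 79.1% of the counts, and below them levels fell off steeply. Of all members, 19 had a mean of at least 100 CPM, 106 of at least 10 CPM and 904 of at least 1 CPM, while 4089 had a mean under 0.1 CPM. After LINC1417 came LINC1159 (328 bases, chromosome 10, 2643366 to 2643693), which lies 1479 bases from a gene for an SR-like splicing factor. It had 4179, 1962 and 906 CPM in mild drought, 7090, 1555 and 5291 CPM in severe drought and 3312, 1805 and 5307 CPM in controls. LINC131 on chromosome 1 (27106907 to 27119769) carried 464 bases of transcript on a span of 12863 bases. It had 1627, 1009 and 1358 CPM in mild drought, 1930, 2109 and 2157 CPM in severe drought and 1446, 1359 and 1878 CPM in controls. Every severe drought library lay above every control library, but the difference did not pass the test (log2 0.40 ± 0.31, edgeR adjusted p = 0.998).

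**Figure D1:**
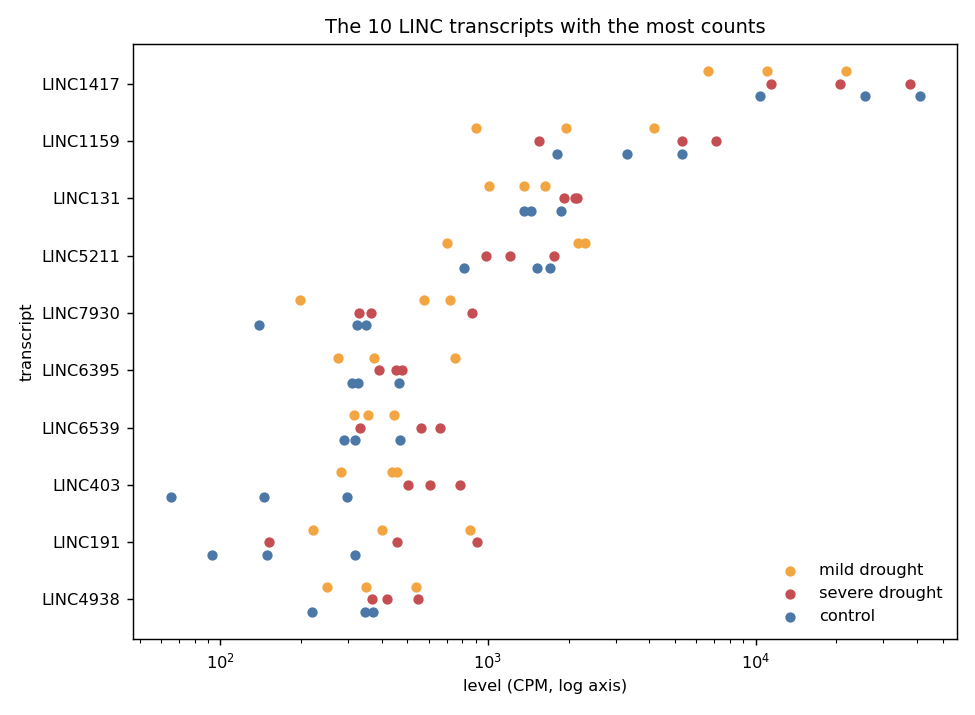
Level in CPM (log axis) of the 10 LINC transcripts with the highest mean level; each point is 1 library and colours mark mild drought, severe drought and control. LINC1417 lies between 6668 and 41179 CPM, above the other 9, and the control points of LINC403, at 65.2 to 298 CPM, lie to the left of its severe drought points, at 501 to 789 CPM.

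LINC403, an unspliced transcript of 1232 bases on chromosome 1 (80879475 to 80880706), lies 797 bases from a gene for ribose-phosphate pyrophosphokinase 1, an enzyme that supplies the precursor of nucleotides. It had 455, 438 and 282 CPM in mild drought, 501, 609 and 789 CPM in severe drought and 146, 298 and 65.2 CPM in controls. All severe drought libraries lay above all controls, and 1 mild drought library lay below the highest control. The log2 difference was 1.90 ± 0.54 for severe drought against control (edgeR unadjusted p = 0.00622, adjusted p = 0.89; DESeq2 adjusted p = 0.0645). For mild drought against control it was 1.21 ± 0.53 (edgeR adjusted p = 1.00). LINC191 on chromosome 1 (35019909 to 35020399) had 221, 402 and 859 CPM in mild drought, 152, 456 and 906 CPM in severe drought and 150, 318 and 93.3 CPM in controls, so that its groups overlapped. LINC7930 and LINC7990 are abundant transcripts on separate unplaced sequences. LINC7990 was not named by rule and was set beside LINC7930 after their values were seen. It had 0.618 to 0.802 of the counts of LINC7930 in every library, while their summed level ranged from 242 to 1454 CPM.

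With LINC1417 included, the class summed to 29439 ± 9426 CPM in mild drought, 41802 ± 15142 CPM in severe drought and 41569 ± 15877 CPM in controls (SD, n = 3 each). Without it the sums were 16266 ± 1668 CPM in mild drought, 18545 ± 2810 CPM in severe drought and 15832 ± 1527 CPM in controls. The groups overlapped on both sums. The spread within groups of the first sum is thus mostly that of 1 transcript.

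The number of LINC transcripts with at least 1 count differed more between libraries of a group than between groups. It was 3262, 5690 and 4873 in the mild drought libraries, 2726, 4221 and 3123 in the severe drought libraries and 3366, 6712 and 3405 in the control libraries. Thinned to the smallest gene-table total, the expected numbers were 3240 to 5477 in mild drought, 2681 to 4180 in severe drought and 3293 to 6644 in controls. The order of libraries therefore did not follow depth. The 4 libraries with the most LINC transcripts (control 2, mild drought 2, mild drought 3 and severe drought 2) were also the 4 with the least LINC1417, 6668 to 11461 CPM against 20604 to 41179 CPM in the other 5. They had the most genes with a count, 24620 to 29760 against 22337 to 24385, and the lowest share of counts on the table's ENSRNA entries, 0.324% to 0.521% against 0.64% to 1.40%. These libraries were singled out after their values were seen, they come from all 3 groups, and the part of any cause in the pattern was not tested. Within each group the second library had the most LINC transcripts and the least LINC1417. Whether the replicate number plays a part in detection was not tested.

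**Figure D2:**
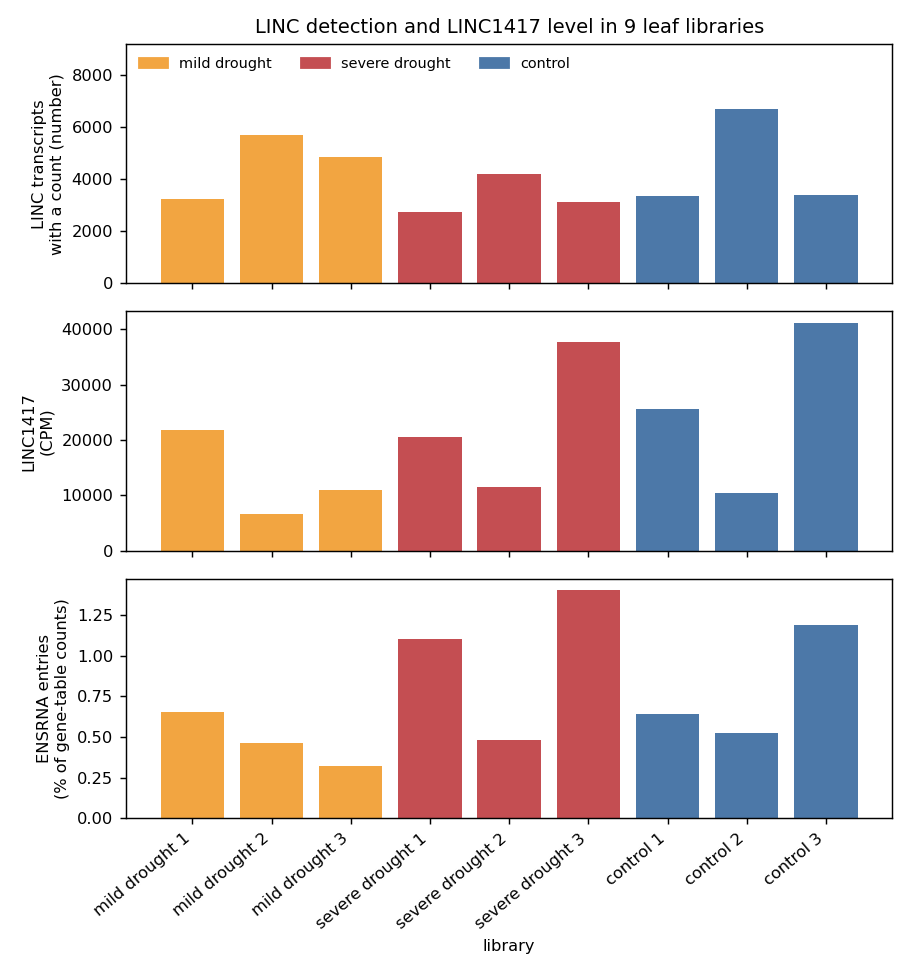
For each of the 9 libraries, the number of LINC transcripts with at least 1 count (top), the level of LINC1417 in CPM (middle) and the share of gene-table counts on ENSRNA entries in percent (bottom); bars are single libraries coloured by group. Mild drought 2 and 3, severe drought 2 and control 2 are the highest in the top panel and the lowest in both others.

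A total of 4207 LINC transcripts (51.7%) had counts in 1 to 3 libraries, 2271 (27.9%) in 4 to 8 and 1652 (20.3%) in all 9. Of the 4207, 3742 (88.9%) were found only within control 2, mild drought 2, mild drought 3 and severe drought 2, and 814 were found in control 2 alone. The same share was 58.7% of 436 AS transcripts, 20% of 80 OT transcripts, 54.5% of 123 IT transcripts and 76.7% of 6858 genes seen in 1 to 3 libraries. The LINC transcripts of 1 to 3 libraries had a median of 19 counts in all and a median span of 301 bases, against 238.5 counts and 682 bases for those of all 9 libraries.

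The narrowly detected LINC transcripts also lay elsewhere in the genome. Sorghum chromosomes carry most genes toward their ends, and 7.09% of genes of the mRNA table started in the middle 40% of a chromosome (measured to the end of its last gene). Of the LINC transcripts seen in 1 to 3 libraries, 50.4% started there, against 31.3% of those seen in all 9. The shares were 7.53% for AS, 18.2% for OT and 12.0% for IT transcripts. The nearest gene was at a median of 22887 bases from LINC transcripts of 1 to 3 libraries and 5814 bases from those of all 9.

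**Figure D3:**
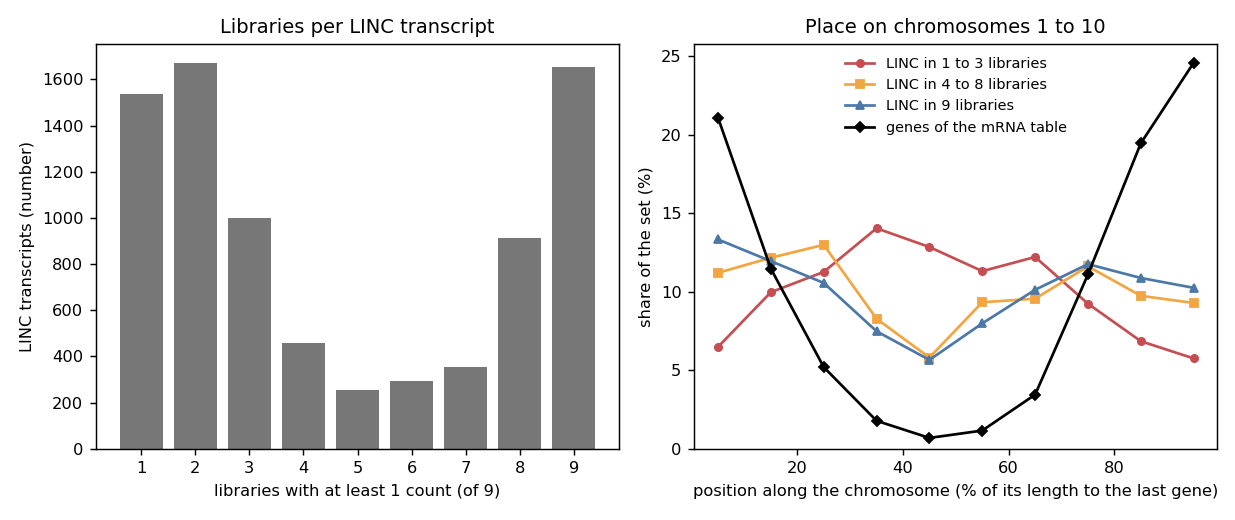
Left, the number of LINC transcripts by the number of libraries in which they had at least 1 count; right, the share of each set along the chromosome, in 10 equal steps of the length to the last gene. Bars peak at 1 to 2 and at 9 libraries, and on the right the genes dip in the middle of the chromosomes while the LINC transcripts of 1 to 3 libraries are most frequent there.

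The median level of LINC transcripts was lower than that of the other classes when all transcripts were taken. The median over transcripts of the mean FPKM was 0.246 for LINC, 0.518 for AS, 1.29 for OT and 0.525 for IT. Within libraries the LINC median FPKM was below that of AS in 8 of 9 libraries, of OT in 9 and of IT in 8. In mild drought 1, severe drought 1 and 3 and control 1 and 3 the LINC median was 0. There 33.5% to 41.9% of LINC transcripts had a count, so the order reflects detection and not level. Among transcripts with a mean of at least 1 CPM the LINC median was below that of AS in 0 of 9 libraries, of OT in 3 and of IT in 1. This filter acts on counts and not on length, so short transcripts pass it at a higher FPKM. It kept 11.1% of LINC, 20.4% of AS, 72.7% of OT and 13.5% of IT transcripts. The filtered medians thus set unlike shares of the classes side by side and cannot say whether the levels of the classes differ.

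In severe drought 1, well expressed LINC transcripts were missing. Of 395 with at least 1 CPM in each of the 8 other libraries, 58 (14.7%) had no count in severe drought 1, against 0 to 3 of 327 to 343 in any other library. At 7710 of the 7813 LINC loci the gene-table count equals the sum of the transcript counts, so it is not a second measurement there. For 57 of the 58, the gene table had no count at the locus in severe drought 1. In the same library 11 of 183 AS transcripts (6.01%), 32 of 364 OT transcripts (8.79%), 0 of 39 IT transcripts and 138 of 15890 genes (0.868%) were missing in this way. The 58 lay on 13 chromosomes or unplaced sequences, had a median of the mean level of 4.03 CPM over the 9 libraries, and 32 (55.2%) were spliced, against 194 (49.1%) of the 395. LINC1130 (675 bases, chromosome 10, 58132612 to 58133286), 4557 bases from a gene for the protease oryzain alpha, had 43.8, 34.8 and 58.6 CPM in mild drought, 0, 17.9 and 34.1 CPM in severe drought and 32.0, 28.1 and 18.7 CPM in controls. LINC6543 on chromosome 8 (18048402 to 18059735) had 38.2, 23.9 and 17.4 CPM in mild drought, 0, 18.7 and 19.5 CPM in severe drought and 23.4, 21.3 and 24.9 CPM in controls. Severe drought 1 is thus the exception in both, and each severe drought mean below holds this library. The cause was not tested.

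In most other absences from a single library the locus itself was counted. Outside severe drought 1, 8 LINC transcripts were at 0 in a single library with at least 1 CPM in all others, and in 6 of them the gene table had counts at the locus. Of 30 transcripts with at least 1 CPM in a single library and no count elsewhere, 14 had a locus that was counted in other libraries. Control 2 held 15 of the 30, and 1 of these 15 had such a locus. LINC5210 and LINC5211 (chromosome 6, 44294504 to 44294849 and 44294504 to 44294850) have spans that differ by 1 base in their end. Their lengths without introns were 265 and 347 bases. LINC5210 had 390 CPM in mild drought 2 and no count in the other 8 libraries, and LINC5211 had 705 CPM in mild drought 2 and 812 to 2302 CPM in the others. LINC1160, which shares its locus with LINC1159, had counts in 3 libraries only (276 CPM in mild drought 3, 1324 CPM in severe drought 1 and 803 CPM in control 3). LINC6413 on chromosome 7 (63006245 to 63009365) had 11.0 CPM in mild drought 3, no count elsewhere and no other transcript at its locus. It overlaps a gene for a protein with BTB/POZ and MATH domains, which select targets for ubiquitination.

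A total of 2471 LINC transcripts had enough counts to be tested, in a fit of all 4837 lncRNA transcripts with enough counts over the 9 libraries. The filter asks for enough counts in as many libraries as a group holds, whichever groups they belong to. A transcript high in no group can therefore pass: LINC7954 had counts only in mild drought 2, mild drought 3 and control 2. The tested members are not a random part of the class. Calls were made at a Benjamini-Hochberg adjusted p under 0.05 over all 4837.

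Mild drought was set against control to ask which transcripts differ when water is moderately short. No LINC transcript was called by edgeR's quasi-likelihood test, against a background of 0% of all lncRNA tested, and 67 (2.71%) had an unadjusted p under 0.05, against 3.27% of all lncRNA tested; uniform p-values would give 123.55 LINC transcripts. DESeq2 called 3 (0.122%), all higher, against 0.251% of all lncRNA. All 3 had no count in at least 1 library, and in 2 of them the groups did not overlap. In 160 LINC transcripts (6.48%) the lowest mild drought library exceeded the highest control, and in 121 (4.90%) the highest mild drought library was under the lowest control. The background over all lncRNA tested was 6.97% above and 4.36% below. The median log2 difference was 0.09 over the LINC transcripts tested and 0.13 over all lncRNA tested.

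The members named for this comparison by smallest p, with groups that did not overlap, stayed far from a call. LINC3159 (394 bases, chromosome 3, 54133497 to 54133890) lies 262 bases from a gene for inorganic pyrophosphatase 2. It had 51.7, 74.4 and 37.2 CPM in mild drought and 23.3, 31.5 and 10.8 CPM in controls, and 57.6, 89.4 and 62.9 CPM in severe drought. All 6 drought libraries lay above all 3 controls (mild drought against control, log2 1.32 ± 0.48, edgeR adjusted p = 1.00). Its neighbour, the pyrophosphatase gene, averaged 4.76 ± 0.231 CPM in mild drought and 3.89 ± 1.88 CPM in controls (SD, n = 3 each; log2 0.29 ± 0.42, edgeR adjusted p = 0.999). The log2 differences of LINC683, LINC3172 and LINC1320 were 1.25 ± 0.48, 1.33 ± 0.52 and 1.29 ± 0.52. In the gene table, mild drought and control overlapped at the locus of LINC3172. On the lower side, LINC6911 on chromosome 8 (14366593 to 14367268) had 1.75, 1.29 and 1.62 CPM in mild drought and 4.32, 6.11 and 2.01 CPM in controls (log2 -1.42 ± 0.53). For LINC796, LINC363 and LINC4036 they were -2.19 ± 0.86, -2.12 ± 0.84 and -1.29 ± 0.52. Summed, the 3 LINC transcripts at the locus of LINC363 had a log2 difference of -1.53 ± 0.80. At that locus mild drought 1, with 6.07 CPM, lay above control 2, with 4.31 CPM. Not 1 of the 8 passed in edgeR (adjusted p = 1.00 for each), and DESeq2 adjusted p ran from 0.563 to 0.764.

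Severe drought was set against control to ask the same of a stronger shortage. No LINC transcript was called by edgeR, against a background of 0.062% of all lncRNA, and 106 (4.29%) had an unadjusted p under 0.05, against 4.94%. DESeq2 called 19 (0.876%, 11 higher and 8 lower), against a background of 0.926%. Of the 19, 13 had no count in at least 1 library, and in 14 the groups did not overlap. Every severe drought library lay above every control in 98 LINC transcripts (3.97%) and below in 257 (10.4%). The background was 3.72% above and 10.7% below. With TMM scaling the numbers were 187 above and 138 below, so the excess of lower values rests on the plain totals. The share over all lncRNA with TMM is not given here. The median log2 difference was -0.19 over both the LINC transcripts and all lncRNA tested, and 0.12 over both with TMM.

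Of the 4 transcripts named on the higher side, 2 came from a locus on chromosome 6. LINC5130 and LINC5131 (both 34406933 to 34411105) have the same ends and lengths of 4088 and 3765 bases, and the division of reads between them is uncertain. LINC5130 had 7.21, 3.95 and 2.15 CPM in severe drought and 0.505, 0.808 and 0.728 CPM in controls (log2 2.70 ± 0.60, edgeR adjusted p = 0.573, DESeq2 adjusted p = 0.00032). LINC5131 had 19.2, 7.97 and 3.84 CPM in severe drought and 1.21, 0.958 and 1.36 CPM in controls (log2 3.13 ± 0.77, edgeR adjusted p = 0.749, DESeq2 adjusted p = 0.00583). In both, all severe drought libraries lay above all controls, with severe drought 1 the highest. Summed over the lncRNA transcripts of the locus, the log2 difference was 1.98 ± 0.56 (edgeR adjusted p = 0.955). The gene table counted 59.6, 25.1 and 17.0 CPM at this locus in severe drought, 14.4, 7.98 and 16.9 CPM in mild drought and 7.51, 6.83 and 11.4 CPM in controls.

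LINC7257 on chromosome 9 (7461159 to 7465087) had the largest difference of the members named on the higher side. It had 4.09, 1.41 and 2.73 CPM in severe drought and 0, 0.0299 and 0.146 CPM in controls (log2 5.45 ± 1.46, edgeR adjusted p = 0.857, DESeq2 adjusted p = 0.00278). In mild drought it had 3.39, 1.24 and 0.097 CPM, so that the third mild drought library lay within the controls. LINC7257 shares its locus with LINC7256, and the locus as a whole did not separate the groups: the gene table had 14.7, 2.54 and 5.28 CPM there in severe drought and 3.16, 3.74 and 6.06 CPM in controls. The log2 difference of the 2 transcripts summed was 0.80 ± 0.66 (edgeR adjusted p = 0.997). LINC4823 (530 bases, chromosome 5, 55836899 to 55837428) lies 3753 bases from a gene for the translationally-controlled tumor protein, a conserved protein of growth control. It had 54.8, 33.3 and 19.4 CPM in severe drought and 5.81, 14.5 and 10.3 CPM in controls (log2 1.81 ± 0.51, edgeR adjusted p = 0.89, DESeq2 adjusted p = 0.0521).

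On the lower side, LINC3236 on chromosome 3 (68661539 to 68661953) had 0.223, 0.129 and 0.359 CPM in severe drought and 1.52, 5 and 2.35 CPM in controls (log2 -3.63 ± 1.01, edgeR adjusted p = 0.89). LINC349 and LINC364 had log2 differences of -1.79 ± 0.58 and -2.51 ± 0.75, and the LINC transcripts summed over their loci, 3 at each, had -0.86 ± 0.50 and -2.34 ± 0.82. LINC4835 on chromosome 5 (57854655 to 57857046) overlaps a gene for a disease resistance protein of the RGA2 type, a family of receptors for pathogens inside the cell. LINC4835 had 1.81, 0.675 and 2.15 CPM in severe drought and 15.1, 2.90 and 5.31 CPM in controls (log2 -2.32 ± 0.78, edgeR adjusted p = 0.937). The overlapping gene averaged 13.4 ± 7.08 CPM in severe drought and 47.9 ± 31.1 CPM in controls (SD, n = 3 each; log2 -1.84 ± 0.56, edgeR adjusted p = 0.246). The sources used here do not say whether counting used strand, so reads of the pair cannot be told apart.

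**Figure D4:**
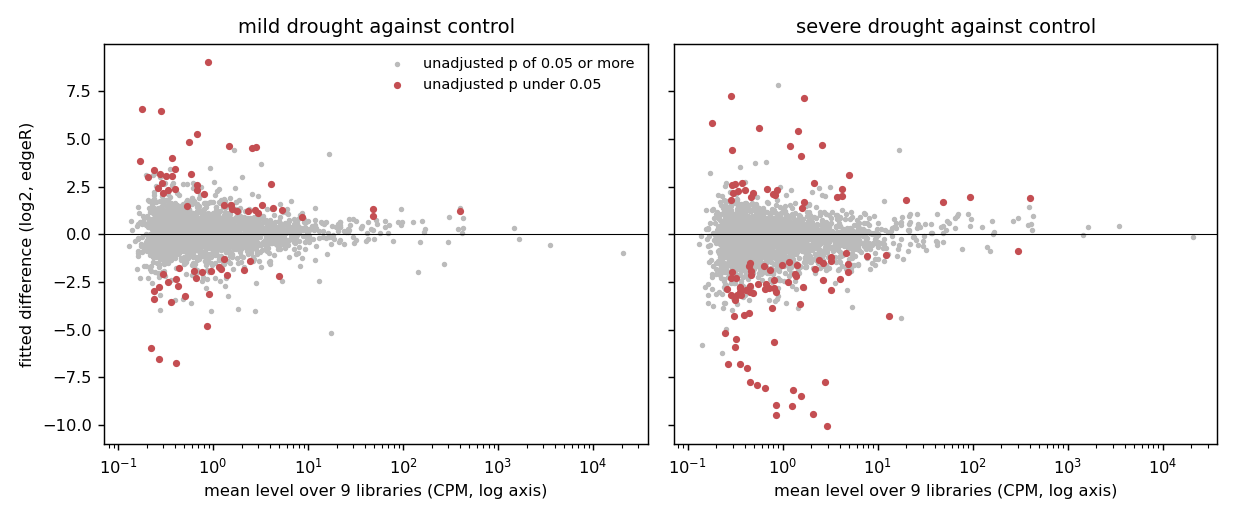
Fitted log2 difference of each of the 2471 LINC transcripts tested, against its mean level over the 9 libraries (CPM, log axis), for mild drought against control (left) and severe drought against control (right); positive values are higher in drought. Red points have an unadjusted p under 0.05, 67 on the left and 106 on the right, and none passed the adjusted threshold in edgeR.

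The 2 drought levels were compared with each other, severe against mild. No LINC transcript was called by edgeR, against a background of 0.0827% of all lncRNA, and 87 (3.52%) had an unadjusted p under 0.05, against 4.44%. DESeq2 called 11 (0.448%, 4 higher and 7 lower), against 0.564%. Of the 11, 9 had no count in at least 1 library, and in 10 the groups did not overlap. Every severe drought library lay above every mild drought library in 53 (2.14%) and below in 231 (9.35%), against a background of 1.98% and 10%. With TMM scaling the numbers were 112 above and 126 below, with no share over all lncRNA given beside them.

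Among members averaging at least 1 CPM whose groups did not overlap, LINC5130 and LINC4823 had the smallest p on the higher side. Their log2 differences were 1.81 ± 0.58 and 1.40 ± 0.51 (edgeR adjusted p = 0.991 for both). On the lower side 2 transcripts had no count in any severe drought library. LINC768 on chromosome 1 (76321773 to 76325142) had 3.04, 5.53 and 1.49 CPM in mild drought, which makes it at least 112-fold lower in severe drought when the group is given a floor of 3 counts. LINC4508 on chromosome 5 (6299531 to 6301872) had 6.42, 2.50 and 2.72 CPM in mild drought and was at least 121-fold lower in severe drought by the same floor. The controls had 1.47, 2.37 and 0 CPM of LINC768 and 3.26, 0 and 4.10 CPM of LINC4508. DESeq2 called both (adjusted p = 0.00246 for LINC768 and 0.00194 for LINC4508) and edgeR did not (0.985 for both). The loci themselves were counted in severe drought, apart from severe drought 1: the gene table had 0, 10.2 and 8.87 CPM at the locus of LINC768 and 0, 6.78 and 3.99 CPM at that of LINC4508. LINC2751 on chromosome 3 (71944447 to 71949093) lies 62 bases from a gene for the transcription factor ICE1, known from Arabidopsis thaliana for the response to cold. It had 4.93, 1.61 and 1.72 CPM in severe drought and 9.17, 10.9 and 7.89 CPM in mild drought (log2 -1.76 ± 0.53, edgeR adjusted p = 0.991), and its controls, 3.82, 4.04 and 3.66 CPM, lay within the severe drought range. It is 1 of 3 LINC transcripts at its locus, of which LINC2752 had 0.278, 3.41 and 6.86 CPM in severe drought and 0.263, 0.121 and 4.72 CPM in mild drought. The log2 difference of the 3 summed was -0.46 ± 0.35 (edgeR adjusted p = 0.975), and that of the 2 at the locus of LINC768 was -1.22 ± 1.28 (edgeR adjusted p = 0.975).

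Both drought levels were then set together against control. This comparison shares all its libraries with the first and the second. No LINC transcript was called by edgeR, against a background of 0.0207% of all lncRNA, and 96 (3.89%) had an unadjusted p under 0.05, against 4.24%. DESeq2 called 8 (0.333%, 5 higher and 3 lower), against 0.575%. Of the 8, 7 had no count in at least 1 library, and in 4 the groups did not overlap. All 6 drought libraries lay above all 3 controls in 27 (1.09%) and below in 41 (1.66%), against a background of 1.12% and 1.55%. With TMM scaling they lay above in 41 and below in 25, with no share over all lncRNA given beside these.

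LINC3159 had the smallest p of the members named on the higher side, with 62.2 ± 18.1 CPM (SD, n = 6) in drought and 21.9 ± 10.4 CPM (SD, n = 3) in controls (log2 1.5 ± 0.44, edgeR adjusted p = 0.999, DESeq2 adjusted p = 0.0891). LINC8048, on an unplaced sequence, had 3.77, 6.99 and 2.46 CPM in mild drought, 4.71, 7.49 and 7.86 CPM in severe drought and 2.25, 2.07 and 0.703 CPM in controls (log2 1.70 ± 0.56, edgeR adjusted p = 0.999). For severe drought alone against control DESeq2 called both (adjusted p = 0.0374 for LINC3159 and 0.0313 for LINC8048), and edgeR did not (0.923 and 0.937). LINC3172 (chromosome 3, 56089090 to 56091277) averaged 2.01 ± 0.487 CPM in drought and 0.778 ± 0.234 CPM in controls (SD, n = 6 and 3). In the gene table, mild drought 1 (1.78 CPM) lay below control 2 (1.86 CPM) at the locus of LINC3172. On the lower side LINC6911 averaged 1.59 ± 0.173 CPM in drought and 4.15 ± 2.05 CPM in controls, a log2 difference of -1.38 ± 0.43. LINC796 (chromosome 10, 2476111 to 2476449) had 3.68, 0.582 and 2.33 CPM in mild drought, 2.17, 0.707 and 4.81 CPM in severe drought and 16.4, 6.86 and 6.74 CPM in controls (log2 -2.07 ± 0.69, edgeR adjusted p = 0.999). LINC1251, 1 of 9 LINC transcripts at its locus on chromosome 10 (21962638 to 21966895), had a log2 difference of -1.05 ± 0.40. At the whole locus the groups overlapped. The gene table had 40.9, 26.4 and 19.1 CPM there in mild drought, 30.6, 23.2 and 19.3 CPM in severe drought and 37.1, 32.2 and 46.0 CPM in controls.

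**Figure D5:**
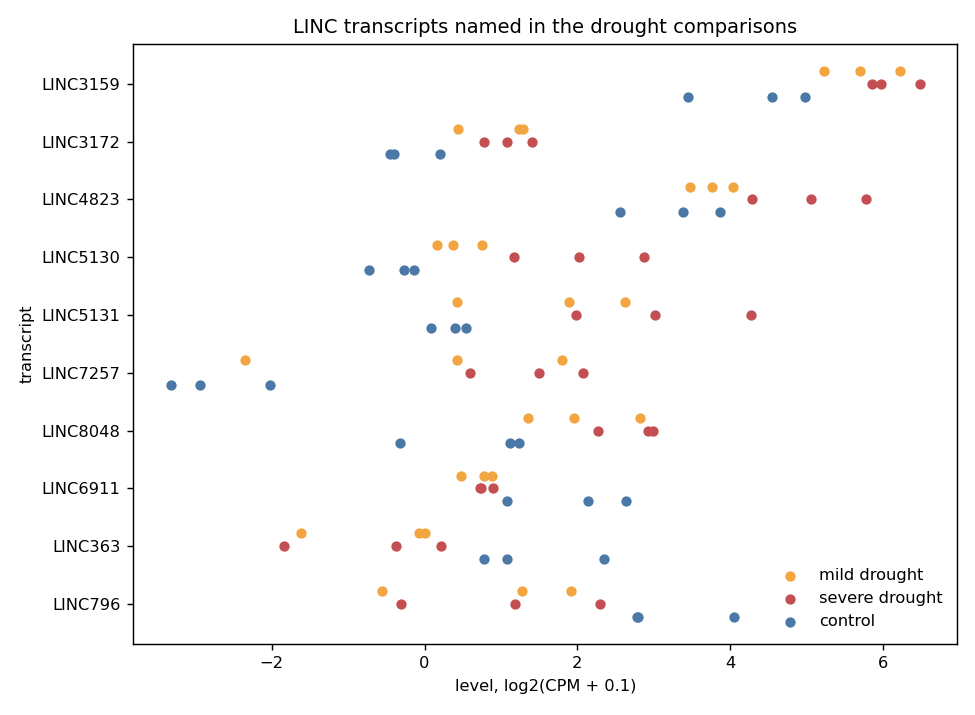
Level, as log2(CPM + 0.1), of 10 LINC transcripts named in the comparisons of drought with control; each point is 1 library and colours mark mild drought, severe drought and control. Drought points of LINC3159, LINC3172, LINC5130 and LINC8048 lie to the right of every control point and those of LINC6911, LINC363 and LINC796 to the left, and none of these was called by edgeR.

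Only 1 LINC transcript had counts in all 6 drought libraries and in no control, and it was picked out after its values were seen. LINC4037 (chromosome 5, 3601358 to 3601999) had 0.321, 0.267 and 0.356 CPM in mild drought, 0.835, 0.354 and 0.431 CPM in severe drought and no count in controls. DESeq2 called it for both drought levels (adjusted p = 0.000644) and edgeR did not (0.531). It lies within LINC4036 (3600632 to 3602189), which had 0.993, 0.679 and 0.711 CPM in mild drought, 0.807, 1.29 and 1.47 CPM in severe drought and 1.90, 2.49 and 1.48 CPM in controls. The gene table counted 0.946 to 1.90 CPM at their common locus in drought and 1.48 to 2.49 CPM in controls, so the whole locus was not higher in drought. Of the other possible patterns, 13 LINC transcripts were in all mild drought and control libraries and in no severe drought library, and 2 (LINC3756 and LINC7163) were in all severe drought and control libraries and in no mild drought library. Found in all 3 libraries of 1 group and in no other were 3 for mild drought (LINC3557, LINC4533 and LINC1415), 0 for severe drought and 2 for controls (LINC5208 and LINC1014). These patterns were counted for LINC transcripts only, so no share over all lncRNA stands beside them. Severe drought 1 and 3 had the fewest LINC transcripts with a count, 2726 and 3123. Severe drought 1 alone lacked 58 of the 395 with at least 1 CPM in every other library.

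Genes that make, cut or degrade non-coding RNA were examined beside the LINC transcripts. They comprise Dicer and Argonaute proteins of RNA silencing, RNA polymerases II, IV and V, RNA-dependent RNA polymerases, the exosome and related factors. Of 107 listed, 87 were tested and edgeR called 0 in each of the 4 comparisons, where it also called 0 of 22075 genes (0%). The count at an unadjusted p under 0.05 was 1 higher and 0 lower for mild drought against control (background over all genes 5.6%), and 1 higher and 13 lower for severe drought against control (14.1%). It was 0 higher and 12 lower for severe against mild drought (9.59%), and 1 higher and 5 lower for both drought levels against control (10.2%). DESeq2 called 0, 1, 0 and 1 in the order in which the comparisons were given, and each call was higher in drought. The share that DESeq2 called over all genes is not given here, so these calls have no background. The Dicer homolog 2a gene (SORBI_3001G179900, chromosome 1, 15246260 to 15252878), which cuts double-stranded RNA, averaged 8.18 ± 1.14 CPM in severe drought and 24.2 ± 6.10 CPM in controls (SD, n = 3 each; log2 -1.56 ± 0.47, edgeR adjusted p = 0.246). The median log2 difference for severe drought against control was -0.31 over the list and -0.33 over all genes tested.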

How the data were processed

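Counts of reads per lncRNA transcript and per gene, and FPKM values per lncRNA transcript and per gene, are as the authors deposited them, 1 column per library per the file headers; all 9 libraries were used and 0 per-sample columns were left out. HISAT2 2.0.4, STAR and StringTie 1.3.3b are named in the submitters' processing notes, with no role or order; they name no genome build. Groups and replicate numbers come from the sample titles.

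LINC transcripts were selected by name and their counts divided by the column totals of the gene table. The main test was edgeR 4.0.16 (quasi-likelihood, R 4.3.3) on all lncRNA transcripts, after filterByExpr with default settings, with those totals as library sizes, no TMM factor and all 9 libraries in 1 fit; it was tested on simulated data. DESeq2 1.42.0 and limma 3.58.1 were alternatives, with limma on log2(FPKM + 0.1) and log2(FPKM + 1). SE is the log2 difference over the square root of F. The spread between libraries (common coefficient of variation 0.857 for lncRNA, 0.518 for genes) set the precision.

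Named transcripts were LINC1417, the 10 most abundant, up to 4 per direction and comparison with smallest p, a mean of at least 1 CPM and no overlap of groups, the longest, and those at 0 in or confined to 1 library; others are marked in the text. Exon numbers are not in the tables used, so length stood in for them. The members and lists were chosen with earlier results of these data known. Alternatives covered scaling, filters, tools, loci, groups in the fit, libraries left out and replicate numbers as a block.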

Additional observations from a re-analysis of the deposited data

How the results depend on the processing

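The count of 0 LINC transcripts called by edgeR rested on the tool and the filter. DESeq2 called 3 for mild drought against control, 19 for severe drought against control, 11 for severe against mild drought and 8 for both drought levels; edgeR without a filter on low counts called 4, 10, 14 and 9 in the same order. The share that edgeR called without this filter over all lncRNA is not given here, so those calls have no background. Every other setting run gave 0 calls in all 4 comparisons, and leaving out single libraries gave 0 to 0. For LINC1417, severe drought against control was a log2 difference of 0.17 with TMM, 0.16 with DESeq2, 0.18 without severe drought 2 and 0.37 without control 3; severe against mild drought was -0.34 with the ENSRNA share as a covariate, a setting added after seeing the data. None of these passed a test, and the cause was not tested. Leaving out single libraries gave -1.54 to -0.45 for mild drought, -0.68 to 0.37 for severe drought, 0.28 to 1.39 for severe against mild drought and -0.93 to -0.04 for both. The log2 ratio of summed LINC levels without LINC1417 was 0.34 for mild drought with the lncRNA table as denominator and 0.22 without the 4 libraries with the most LINC transcripts, a setting added after seeing the data. It was 0.53 for severe drought with TMM, and for severe against mild drought 0.46 with TMM and -0.20 with the lncRNA denominator. Among transcripts of at least 1 CPM, the LINC median was below those of AS, OT and IT in 0, 3 and 1 of 9 libraries. That filter keeps unlike shares of the classes. DESeq2 called 1 RNA processing gene for severe drought and 1 for both levels, each higher in drought. The 32 results of named members gave 728 alternative values, of which 9 were past the threshold where the main one was not and none changed direction. These members were picked for groups that did not overlap, so their direction had little room to change. Its constancy adds no support. Correlations of same-numbered libraries' deviations were -0.10 to 0.12 in the lncRNA table (1 of 9 pairs over 0.1). They were -0.38 to 0.37 in the gene table (3 of 9), so the numbers were not taken as pairs. Only transcripts and genes with enough counts to be tested entered these correlations. They therefore say nothing of the LINC transcripts left untested. A replicate block gave 0 LINC calls in each comparison.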

Other observations

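Among the 106 LINC transcripts with a mean of at least 10 CPM, the coefficient of variation over the 9 libraries had a median of 41.8%, with 18 under 25% and 7 over 100%. The steadiest was LINC4495 on chromosome 5 (5086351 to 5105182), with 13.0, 14.9 and 13.2 CPM in mild drought, 15.4, 14.1 and 10.1 CPM in severe drought and 11.8, 13.3 and 11.2 CPM in controls (13.3%). LINC360 on chromosome 1 (72269615 to 72273098) had 31.4 to 60.7 CPM over the 9 libraries (17.7%). At the other end, LINC7882, on an unplaced sequence, had 146 CPM in control 2, 2.01 to 5.11 CPM in 3 drought libraries and no count in 5 libraries. LINC2398 on chromosome 3 (13453511 to 13454731) had 57.4 CPM in mild drought 2 and 77.2 CPM in severe drought 3 and at most 5.5 CPM in the other 7. These transcripts were picked after their values were seen, and no test was made of them.

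The spread depended on the level: the median coefficient of variation was 96.7% for 3137 LINC transcripts with a mean of 0.1 to 1 CPM and 53.7% for 798 with 1 to 10 CPM.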
